A study of Mus musculus with 3 samples.

Results

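Collagen processing enzymes and chaperones of the endoplasmic reticulum (ER) were examined as 1 set of 39 genes, of which 36 had a probe set assigned to a single gene symbol in the array annotation, out of 18193 such genes on the array. Where a gene had several probe sets, the one with the highest mean over the 3 arrays stood for it. Fkbp10, Adamts2 and Adamts14 were not analysed here. The cells were MC3T3-E1, an immortal mouse preosteoblast line from the calvaria of C57BL/6 mice, and RNA was taken on day 3 at 37 °C. All media were based on MEM α and 10% fetal bovine serum (FBS), which alone made up the normal medium. To make osteogenic medium, 150 µM ascorbic acid 2-phosphate, a derivative of vitamin C, and 10 mM beta-glycerophosphate were added, and the last group received osteogenic medium with 0.6% dimethyl sulfoxide (DMSO). There was 1 array per medium, so no difference between media has a replicate check or a p-value, and precision is limited by the small number of arrays.

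Procollagen chains are folded and modified in the ER before secretion. Prolyl and lysyl hydroxylases modify the chains with iron, 2-oxoglutarate and vitamin C as cofactors. Hydroxyproline stabilises the triple helix, and hydroxylysine carries sugars and later crosslinks, for which osteoblasts have a heavy demand. Collagen-specific chaperones and general ER chaperones hold the chains during folding. Misfolded proteins activate the unfolded protein response, in which factors such as XBP1 and ATF6 raise chaperone and degradation genes through ER stress response elements (ERSE) in their promoters.

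The promoter element is shown first because it is a sequence that many of the general chaperones share. The set includes chaperone and degradation genes, the kind raised through this element, so a high share of it is no independent finding. RefSeq promoters of build GRCm38.p6, from 250 bases before to 50 bases after the annotated start, were available for 30 of the 36 genes. Plod2, P3h2, Bmp1, Creb3l1, Hyou1 and Manf were not among them. The ERSE, searched on both strands as CCAAT and CCACG separated by any 9 bases, was found in 8 of the 30 genes (26.7%) and in 37 of all 27025 genes with a promoter in the table (0.137%). Of the 12 general chaperones with a promoter 7 held it, and the other gene was Syvn1. None of the 5 hydroxylases with a promoter held it in this window. In the sites below the capitals mark the fixed letters CCAAT and CCACG, each line reads 5′ to 3′ on the strand named, and the lower-case ends are 8 flanking bases.
Hspa5 (chr2:34772017-34772051, plus strand): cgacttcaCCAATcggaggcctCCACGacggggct
Hsp90b1, distal site (chr10:86705630-86705664, minus strand): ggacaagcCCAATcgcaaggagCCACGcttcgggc
Hsp90b1, proximal site (chr10:86705525-86705559, plus strand): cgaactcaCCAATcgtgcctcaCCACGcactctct
Calr (chr8:84847067-84847101, plus strand): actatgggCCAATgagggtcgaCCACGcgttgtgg
Canx (chr11:50325792-50325826, minus strand): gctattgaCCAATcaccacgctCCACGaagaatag
Pdia6 (chr12:17266483-17266517, plus strand): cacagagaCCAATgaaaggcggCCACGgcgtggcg
Dnajc3 (chr14:118937819-118937853, plus strand): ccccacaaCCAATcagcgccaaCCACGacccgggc
Creld2 (chr15:88819512-88819546, minus strand): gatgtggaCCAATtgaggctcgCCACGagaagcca
Syvn1 (chr19:6046524-6046558, plus strand): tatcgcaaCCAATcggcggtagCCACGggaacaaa

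The sites of Calr and Creld2 and the proximal site of Hsp90b1 ran on the strand opposite to the gene. The site nearest to a transcript start was that of Syvn1, at -44 to -26, and the site of Hspa5 lay at -65 to -47. Hsp90b1 was the only one of the 8 genes with a pair of exact matches, at -212 to -194 and -107 to -89. Inexact copies of the element were not searched for, so further sites in these promoters are not counted here. The related element ERSE-II, searched on both strands as ATTGG and CCACG separated by any 1 base, was found in 2 of the 30 genes (6.67%) and in 12 of 27025 genes (0.0444%). Both are shown with the fixed letters in capitals.
Herpud1 (chr8:94386369-94386395, plus strand): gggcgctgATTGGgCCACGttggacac
Dnajb11 (chr16:22857844-22857870, plus strand): cggcggcgATTGGcCCACGcctggctg

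The ERSE-II of Herpud1 lay at -52 to -42 and that of Dnajb11 just inside the transcript, at 8 to 18. ERSE and ERSE-II share the letters CCACG, but no member held both. The short core of the unfolded protein response element, TGACGTG, was found in Hspa5 and Adamts3 (6.67% of the 30 genes, against 2.22% of all). The 250 bases before the start are printed for Hspa5 and Hsp90b1, which carry the element, and for P4ha3, the hydroxylase with the largest difference among those with a promoter, with the fixed ERSE letters in capitals. The 250 bases of P4ha3 held none of the 3 motifs.
Hspa5 (chr2:34771840-34772089, plus strand): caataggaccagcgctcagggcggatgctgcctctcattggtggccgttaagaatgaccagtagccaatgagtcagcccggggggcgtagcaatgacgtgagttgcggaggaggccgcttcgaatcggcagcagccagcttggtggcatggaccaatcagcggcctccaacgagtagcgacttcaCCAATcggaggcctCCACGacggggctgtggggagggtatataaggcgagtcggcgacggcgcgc
Hsp90b1 (chr10:86705445-86705694, minus strand): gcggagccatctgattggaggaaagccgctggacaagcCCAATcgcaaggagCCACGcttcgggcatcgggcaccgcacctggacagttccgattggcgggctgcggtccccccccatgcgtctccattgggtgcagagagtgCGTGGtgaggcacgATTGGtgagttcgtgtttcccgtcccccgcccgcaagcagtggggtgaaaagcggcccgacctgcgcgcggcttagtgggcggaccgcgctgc
P4ha3 (chr7:100285270-100285519, plus strand): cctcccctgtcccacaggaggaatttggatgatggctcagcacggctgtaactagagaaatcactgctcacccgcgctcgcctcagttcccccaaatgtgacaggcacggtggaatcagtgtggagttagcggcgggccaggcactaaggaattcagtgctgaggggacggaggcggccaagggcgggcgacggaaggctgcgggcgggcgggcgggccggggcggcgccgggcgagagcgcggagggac

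**Figure D1:**
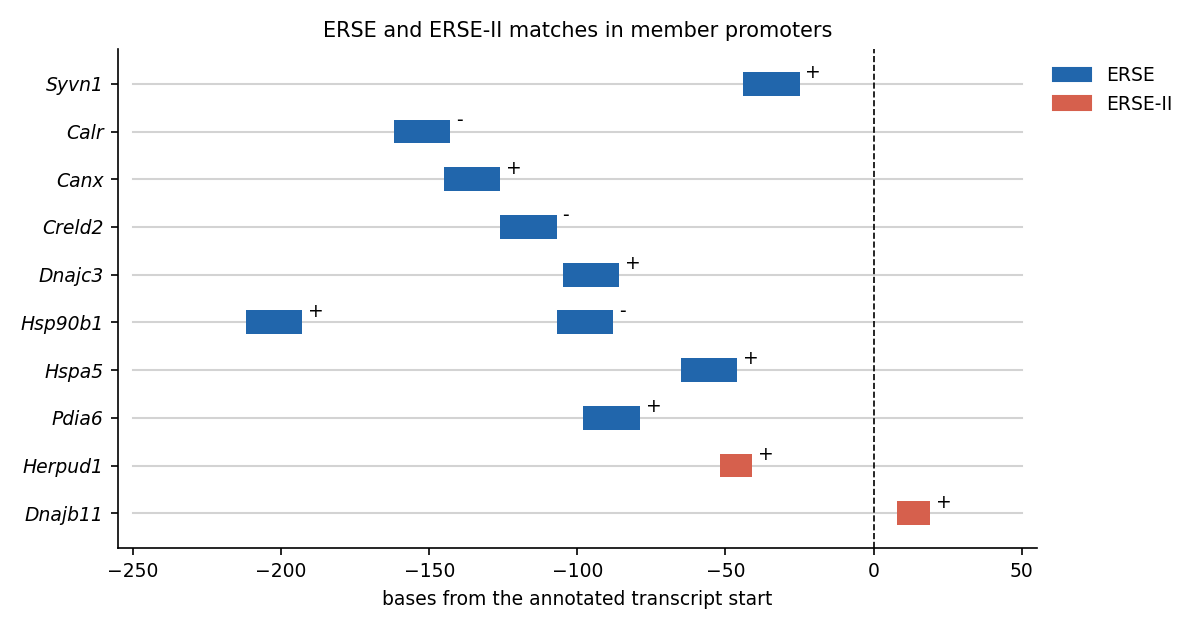
Positions of ERSE (blue) and ERSE-II (red) matches in bases from the annotated transcript start, for the 10 genes that held one; plus and minus mark the strand of the match relative to the gene. Matches lay between -212 and 18, and Hsp90b1 was the only gene with a pair of exact matches.

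Values are log2 levels of a probe set, and differences are log2 differences between 2 arrays. A floor was set at the median of all probe set values, 3.54, and a gene was called measured when its mean over the 3 arrays reached it. Of the 36 genes 35 were measured, each of them above the floor on all 3 arrays, against 11387 of 18193 genes in all. The exception was Adamts3, which cleaves the amino-terminal propeptide, at 1.38 on every array. Levels of different probe sets were not compared with each other. A repeat measurement was given only by other probe sets of a gene. Over 5290 genes with at least 2 measured probe sets, the SD of a difference per probe set was 0.14 for osteogenic against normal medium and 0.11 for DMSO within osteogenic medium, which covers neither the spread between cultures nor that between arrays.

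The array medians were 3.54 for normal medium, 3.58 for osteogenic medium and 3.54 for the array with DMSO. Among probe sets that are not array controls, 37.4% had exactly equal values on all 3 arrays, which gives differences of exactly 0. The 18 hybridisation spikes differed by a median of 0.10 between osteogenic and normal medium and by -0.03 with DMSO. Of 7 osteoblast markers, 4 had a probe set of a single symbol (Sp7, Alpl, Ibsp and Col1a1), and all 4 were measured. Their log2 levels summed to 33.3, 38.1 and 39.8 in the order of the media above. In the lists of other cell types, 1 of 4 macrophage, 0 of 3 endothelial, 0 of 2 adipocyte, 1 of 2 chondrocyte and 1 of 3 skeletal muscle markers with a probe set were measured. The chondrocyte marker was Col2a1, at 7.16, 8.01 and 8.08, and the chondrocyte list summed to 9.83, 10.7 and 10.7. The part of these markers in the differences below was not tested. Fewer cells of a type and less RNA per cell cannot be told apart in such cultures.

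The hydroxylases that need vitamin C held the 3 largest differences of the set between osteogenic and normal medium and the 2 largest with DMSO, all of them downward. P3h2, a prolyl 3-hydroxylase known for its action on basement membrane collagen, stood at 7.31 in normal medium, 6.60 in osteogenic medium and 5.49 in osteogenic medium with DMSO. It was highest in normal medium and lowest with DMSO. P3h2 was thus 1.64-fold lower in osteogenic than in normal medium (log2 difference -0.71) and a further 2.16-fold lower with DMSO (-1.11). Among the 11387 measured genes these were the 92nd and the 52nd lowest differences. From normal medium to osteogenic medium with DMSO, which is the sum of both steps, the difference was -1.82, or 3.54-fold. P3h2 had 1 probe set, so this value has no repeat by another probe set.

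P4ha3, a catalytic subunit of prolyl 4-hydroxylase, had levels of 7.67, 7.31 and 6.94 in the same order of media. It too was lower at each step, by 1.29-fold (-0.36) with osteogenic medium and by 1.29-fold (-0.37) with DMSO. It was read by 1 probe set as well. Plod2, the lysyl hydroxylase of the collagen telopeptides, stood at 8.06, 7.54 and 7.58. It was 1.43-fold lower in osteogenic than in normal medium (-0.52) and differed by 0.04 with DMSO. A second probe set of Plod2 read 7.39, 7.08 and 6.95, with differences of -0.31, just short of the smaller limit used below, and -0.13. Both probe sets placed normal medium highest, and they disagreed in the sign of the DMSO step.

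The remaining hydroxylases differed little. P3h1, the prolyl 3-hydroxylase of fibrillar collagens, stood at 7.71, 7.69 and 7.71, and its second probe set differed by 0.12 and -0.11. Plod1, the lysyl hydroxylase of the collagen helix, stood at 6.37, 6.42 and 6.37. Its second probe set lay below the floor. Plod3, a lysyl hydroxylase that also transfers sugars, read exactly 7.57 on all 3 arrays. P3h3, another prolyl 3-hydroxylase, stood at 8.16, 7.98 and 7.96, with differences of -0.18 and -0.01. The prolyl 3-hydroxylases therefore did not move alike: P3h2 differed by -1.11 with DMSO, P3h1 by 0.02 and P3h3 by -0.01.

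**Figure D2:**
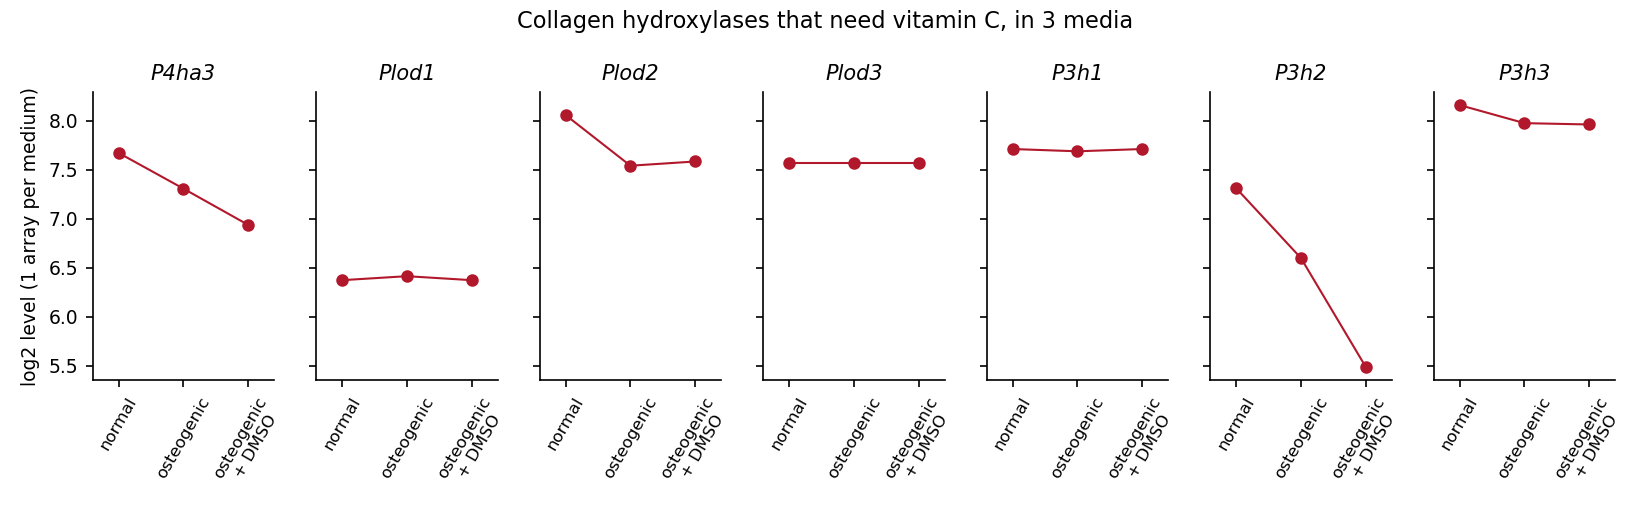
Log2 level of the 7 hydroxylases that need vitamin C on the array of each medium, 1 point per array. P3h2 went from 7.31 to 6.60 to 5.49 and P4ha3 from 7.67 to 7.31 to 6.94, Plod2 was lower in both osteogenic media, and Plod3 was equal on all arrays; heights in different panels come from different probe sets and cannot be compared.

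Counted over the set, no gene was 2-fold lower or higher in osteogenic than in normal medium. The background was 0.184% of measured genes lower and 0.465% higher. At a smaller limit, a difference of 0.3219 on the log2 scale (0.32 when rounded), 4 of the 35 measured genes were lower (P3h2, Plod2, P4ha3 and Sel1l), against 5.89% of all measured genes, and 1 was higher (Bmp1), against 6.01%. Of the 7 hydroxylases, 3 were lower by that limit and none higher, and of the 14 general chaperones none was either. The hydroxylases had a median difference of -0.18, the general chaperones one of -0.06 and all measured genes one of 0.00. The 7 hydroxylases leave out P4ha1 and P4ha2, the other catalytic subunits of prolyl 4-hydroxylase, which differed by -0.005 and 0.26. Both values lie above the hydroxylase median, so that median depends on which hydroxylases were listed. With so few genes, and with their largest values from single probe sets, these counts are descriptions.

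With DMSO, 1 of the 35 genes was 2-fold lower (P3h2), against 0.544% of measured genes, and none was 2-fold higher, against 0.0527%. At the limit of 0.32, 2 were lower (P3h2 and P4ha3), against 5.39%, and 1 was higher (Creb3l1), against 2.23%. At that limit the count of lower genes was close to the background share. The hydroxylases had a median of -0.01, the general chaperones of -0.01 and all measured genes of 0.00. The osteogenic array without DMSO enters both comparisons, so the 2 differences of a gene are not independent.

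**Figure D3:**
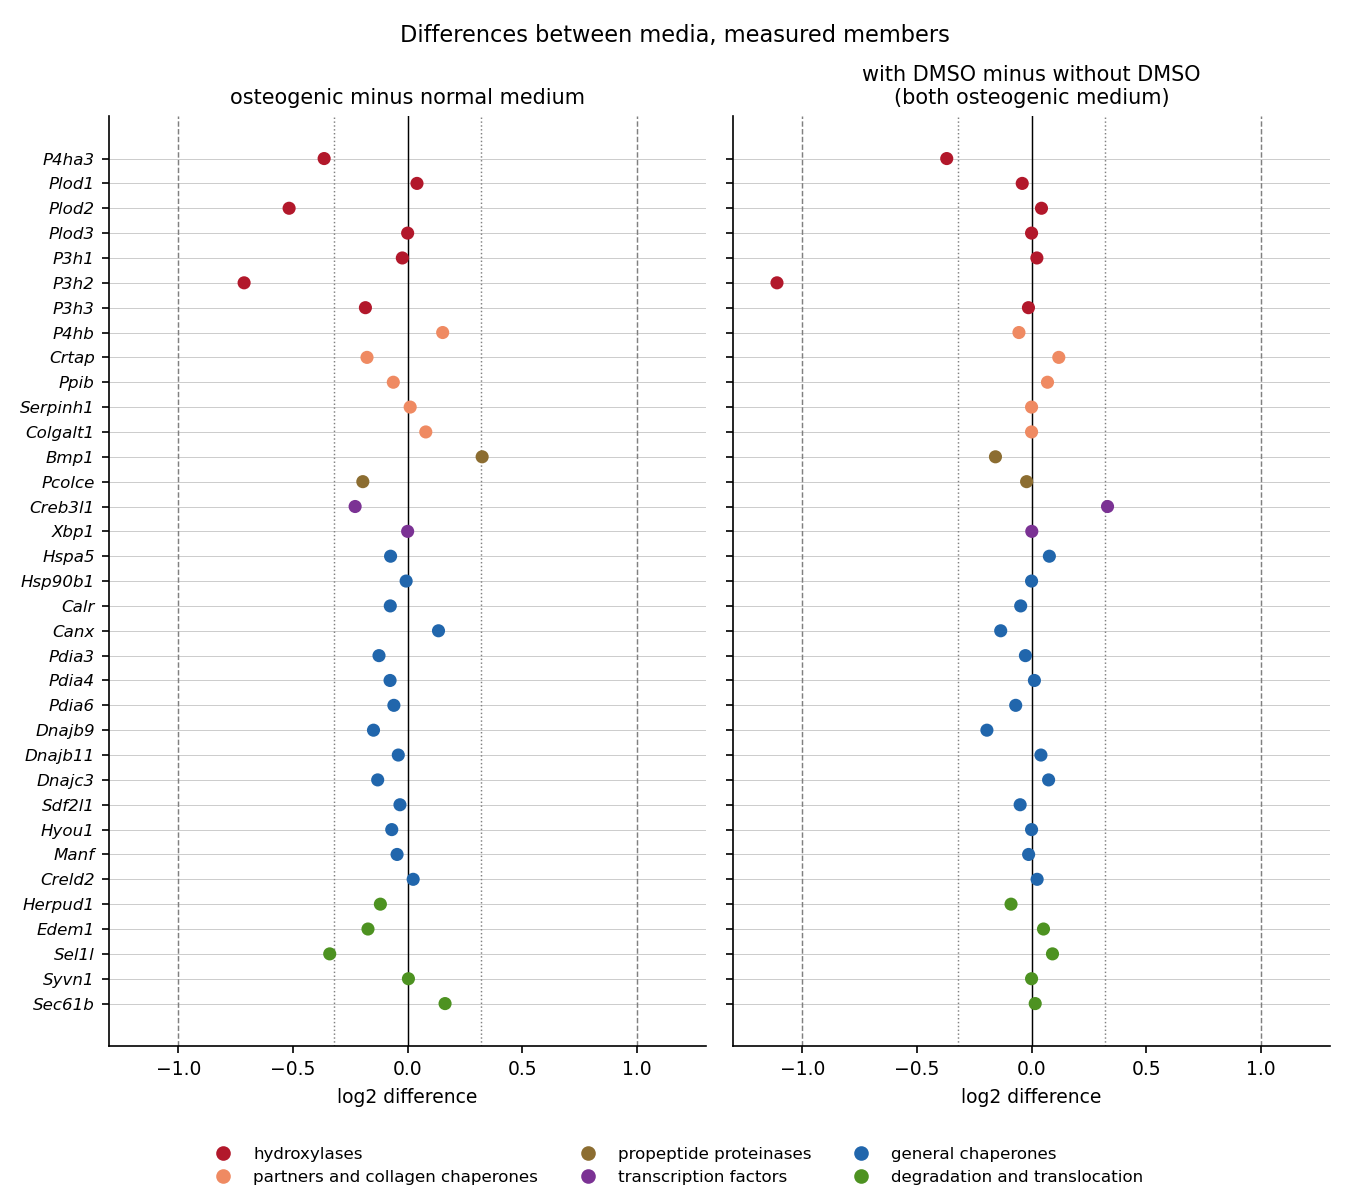
Log2 differences of the 35 measured genes for osteogenic minus normal medium (left) and for DMSO within osteogenic medium (right), coloured by role, with dotted lines at 0.32 in either direction and dashed lines at 2-fold. P3h2 is the only gene beyond 2-fold, at -1.11 with DMSO, and the general chaperones lie between -0.19 and 0.13 in both panels.

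The partners of the hydroxylases stayed close to their levels in normal medium. P4hb, the protein disulfide isomerase that forms the other subunit of prolyl 4-hydroxylase, stood at 11.65, 11.80 and 11.75. It was higher in osteogenic medium by 0.15, where P4ha3 was lower. Crtap and Ppib, which form a complex with the P3h1 protein, stood at 10.19, 10.02 and 10.14 and at 11.38, 11.32 and 11.39. Both were lowest in osteogenic medium without DMSO, Crtap by 0.18 and Ppib by 0.06 below normal medium. The second probe set of Ppib differed by -0.09 and 0.03.

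Serpinh1, the collagen-specific chaperone also called HSP47, stood at 11.87, 11.88 and 11.88. Its second probe set differed by 0.07 and -0.03. Colgalt1, which adds galactose to hydroxylysine, stood at 9.23, 9.31 and 9.31, while its second probe set read exactly 8.54 on all 3 arrays. The role as a whole had a median difference of 0.01 with osteogenic medium and 0.00 with DMSO over 5 genes. None of the 5 reached 0.32 in either comparison.

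Outside the cell, propeptides are removed before fibrils form. Bmp1, the proteinase of the carboxy-terminal propeptide, stood at 6.54, 6.87 and 6.71. It was higher in osteogenic medium by 0.3248, just inside the limit, and lower by 0.16 with DMSO. Its second measured probe set read 4.75, 4.75 and 4.91. The first difference was thus 0.00 there, and the DMSO difference had the opposite sign, at 0.16. Pcolce, the enhancer of that cleavage, stood at 12.17, 11.98 and 11.96, with a first difference of -0.20 and one of -0.08 in its second probe set.

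The ER-membrane transcription factor Creb3l1, also called OASIS and known to act on type I collagen genes in osteoblasts, stood at 7.70, 7.48 and 7.81. It was lowest in osteogenic medium without DMSO and highest with DMSO. The step with DMSO was 0.33, or 1.26-fold, and the step before it -0.23, from 1 probe set. With cyclic loess scaling the DMSO step was 0.3152, under the limit. Xbp1, whose spliced form drives chaperone and degradation genes, stood at 10.54 in each medium. Its second probe set differed by 0.24 and 0.09, the other 2 by 0.00 at both steps and by 0.09 and -0.03. These values do not tell the spliced from the unspliced form.

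Of the 14 general chaperones, 12 were below 0 and 2 above (Canx and Creld2) in osteogenic against normal medium, against 38.4% and 36.2% of all measured genes, and the range was -0.15 to 0.13. Those shares are over 11387 genes, of which 2893 were exactly equal. Of the 8494 that differed, 4370 were below 0. Of the 27 measured probe sets of the chaperones, 22 were below 0, 3 above and 2 equal. These are repeat readings of the same 14 genes on the same 2 arrays, not separate support, and no share over all probe sets was computed. The median of the 14 was -0.06, and -0.18 over the 7 chaperones with a second measured probe set when that one was used. No single chaperone reached 0.32 in size. With DMSO 7 of the 14 were below 0, 5 above and 2 equal, against 30.1% of all measured genes below and 40.3% above. Over the 27 probe sets, again repeat readings of the same genes, 17 were below 0 with DMSO, 6 above and 4 equal.

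Hspa5, which encodes BiP, the central ER chaperone, stood at 11.42, 11.35 and 11.43. It was lowest in osteogenic medium without DMSO. Its second probe set differed by -0.18 and 0.12, with the same signs, and its dimmest by 0.14 and 0.00. Hsp90b1, the ER form of HSP90, stood at 11.12, 11.11 and 11.11, while its second probe set, at 10.90, 10.65 and 10.50, was lower by 0.25 and then by 0.15. The probe sets of Hsp90b1 thus differed from each other by more than its main probe set differed between media.

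The lectin chaperones Calr and Canx bind sugar-bearing chains. Calr stood at 11.09, 11.01 and 10.97, and both of its other probe sets were also lower at each step, by -0.14 and -0.18 in the first comparison. Canx stood at 10.60, 10.74 and 10.60, higher in osteogenic medium by 0.13 and lower with DMSO by 0.13. Its other probe sets gave first differences of -0.03 and -0.19 and DMSO differences of -0.22 and -0.26. All 3 probe sets of Canx were lower with DMSO, and only the brightest was higher in osteogenic medium.

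The disulfide isomerases form and reshuffle disulfide bonds. Pdia3, the partner of the lectin chaperones, stood at 11.52, 11.40 and 11.37, Pdia4 at 9.03, 8.95 and 8.97, and Pdia6 at 10.42, 10.36 and 10.29. All 3 were highest in normal medium, with first differences of -0.12, -0.08 and -0.06. The DMSO differences were -0.03, 0.01 and -0.07.

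Among the DnaJ co-chaperones of BiP, Dnajb9 was, by brightest probe sets, the general chaperone with the largest downward differences. It stood at 7.81, 7.66 and 7.47, lower by 0.15 and then by 0.19, and was 1.27-fold lower over both steps, from 1 probe set. Dimmer probe sets of other chaperones gave larger falls, such as Hsp90b1 at the first step (-0.25) and Canx with DMSO (-0.26). Dnajb11 stood at 8.23, 8.19 and 8.23. Dnajc3, which also restrains the stress kinase PERK, stood at 8.51, 8.37 and 8.45. Of its 4 other probe sets 3 were lower in osteogenic medium, between -0.18 and -0.21, and the last was equal. With DMSO the brightest probe set of Dnajc3 gave 0.07, whereas the 4 others gave -0.01, -0.03, -0.03 and -0.13. The direction of its DMSO step is thus not settled.

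Of the remaining folding helpers, Hyou1, an exchange factor for BiP, stood at 7.67, 7.60 and 7.60. Sdf2l1, which works with Dnajb11, stood at 7.15, 7.11 and 7.06. Manf, a secreted ER stress protein, stood at 9.31, 9.27 and 9.25, and Creld2, another ER stress gene, at 7.76, 7.78 and 7.81. Creld2 was the only one of these 4 above 0 at both steps, by 0.02 each.

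**Figure D4:**
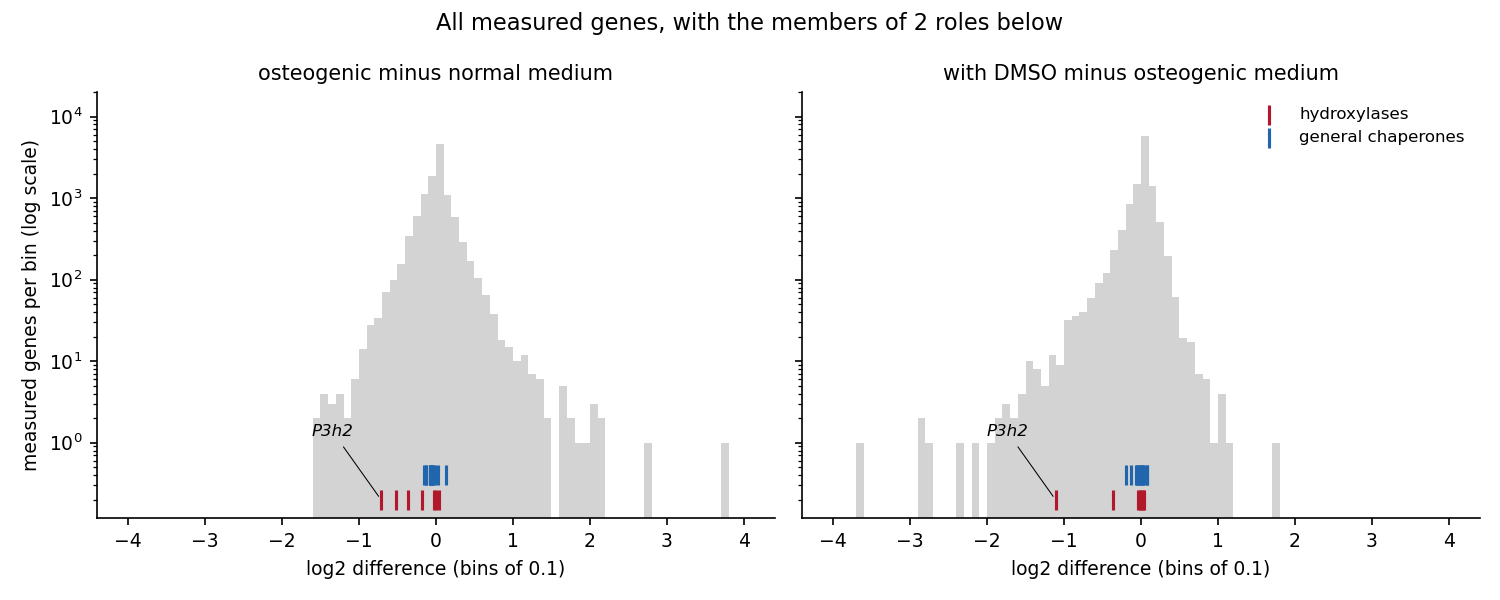
Number of measured genes per bin of log2 difference, on a log axis, for both comparisons, with the 7 hydroxylases (red) and 14 general chaperones (blue) as ticks below. The chaperones sit within 0.19 of 0, in the tallest part of both distributions, and P3h2 lies apart from them at -0.71 and -1.11.

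Genes of ER-associated degradation and translocation had a median of -0.12 in osteogenic against normal medium and 0.02 with DMSO, over 5 genes. Sel1l, the scaffold of the degradation complex, stood at 7.84, 7.50 and 7.59, 1.27-fold lower in osteogenic medium (-0.34). Its other probe sets gave -0.42, -0.08, -0.30 and 0.00, so 4 of 5 were lower and 1 was equal. Their mean was -0.23, under the limit. With DMSO none of the 5 was lower, and they ranged from 0.00 to 0.20. Syvn1, the ubiquitin ligase that Sel1l holds, stood at 7.44 in each medium.

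Herpud1, which assembles the degradation complex, stood at 8.57, 8.45 and 8.36, and its second probe set was lower at both steps too, by 0.09 and 0.20. Edem1, which passes misfolded glycoproteins to degradation, stood at 8.28, 8.11 and 8.16, with -0.17 and 0.05 in its main and -0.08 and 0.16 in its second probe set. Both probe sets of Edem1 were lower in osteogenic medium and higher with DMSO. Sec61b, a subunit of the translocation channel, stood at 11.56, 11.73 and 11.74 and was higher in osteogenic medium by 0.16.

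**Figure D5:**
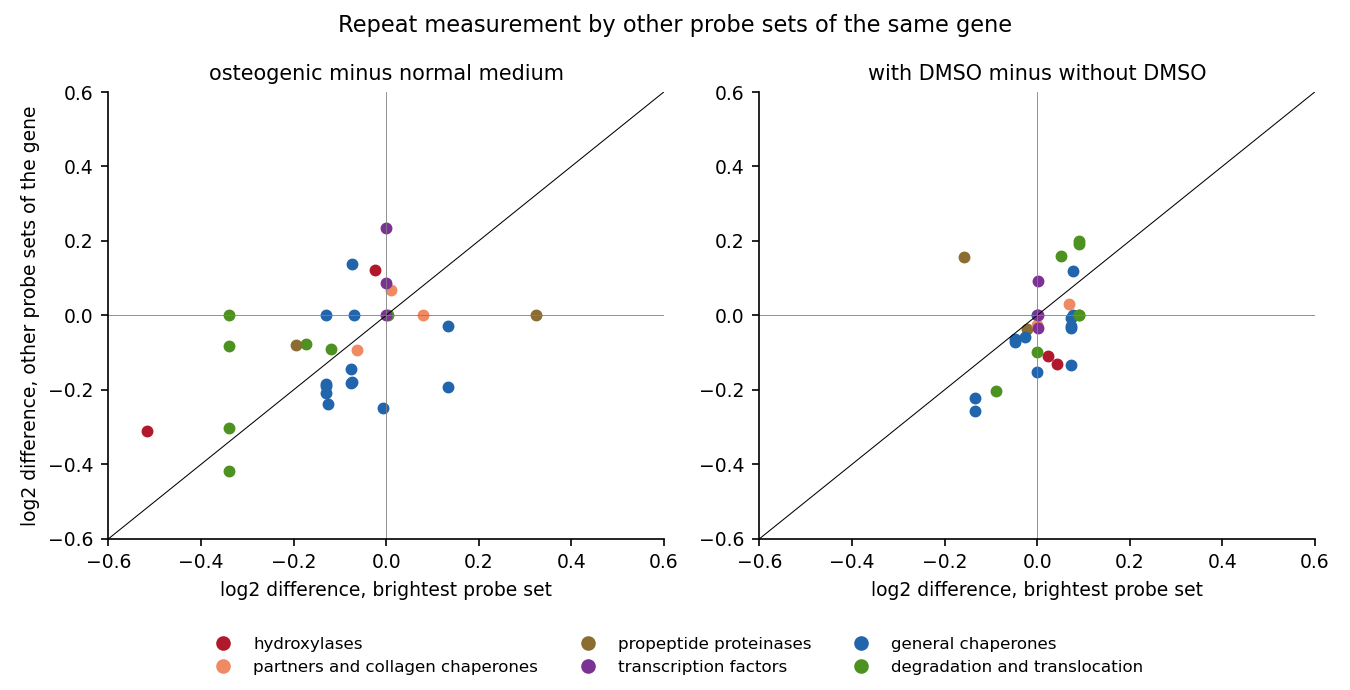
Log2 difference of each further measured probe set against that of the brightest probe set of the same gene, for the 19 genes with at least 2 measured probe sets; the diagonal marks equal values. Of 30 further probe sets, 22 lie within 0.2 of the diagonal for osteogenic against normal medium and 28 for DMSO. Many of the differences are themselves smaller than 0.2, so lying that close does not show agreement in sign. P3h2 and P4ha3 are absent because each had 1 probe set.

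The differences of the 10 genes with an ERSE or ERSE-II match overlapped those of the other genes. Their median difference was -0.05 in osteogenic against normal medium, with 7 below 0 and 3 above, and ranged from -0.13 to 0.13. The 19 measured genes with a promoter and no match had a median of -0.06, with 12 below 0 and 5 above, ranging from -0.36 to 0.16. Of all measured genes, 38.4% were below 0 and 36.2% above in that comparison. With DMSO both medians were 0.00, with 4 below 0 and 4 above among the 10 genes and 8 and 8 among the 19. The shares of all measured genes with DMSO were 30.1% below and 40.3% above. No test was made of these values.

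Other genes of the same pathways were described from lists by role. Among 23 measured genes of collagen maturation outside the set, none was lower by 0.32 in osteogenic medium and 1 was higher, against 5.89% and 6.01% of all measured genes, and the median was 0.09. Kdelr3, a receptor that returns chaperones to the ER, stood at 9.70, 10.14 and 10.38, higher at each step by 0.44 and 0.24. Mbtps1, the protease that activates ATF6 and CREB3L1, was at -0.21 in osteogenic medium, with -0.51 and -0.25 in its other probe sets, and at 0.13 with DMSO. The brightest probe set of the cargo receptor Lman1 gave the lowest first difference of the list, -0.28, but its other 4 gave -0.15, 0.23, 0.00 and 0.49. The other catalytic subunits of prolyl 4-hydroxylase did not follow P4ha3. P4ha1 stood at 8.59, 8.58 and 8.65, and P4ha2 at 7.88, 8.13 and 8.18, a first difference of 0.26. With DMSO 1 gene of this list reached the limit, Pcolce2, a second enhancer of propeptide cleavage. It was higher by 0.322, just inside the limit, from 1 probe set. Of all measured genes 2.23% were higher by the limit with DMSO, so with so few genes this count does not stand out.

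Among 41 measured genes of ER folding, translocation and degradation, 2 were lower by at least 0.32 in osteogenic medium and 1 was higher, no more than the same background shares, with a median of 0.00. Ern1, which encodes the stress sensor IRE1 that splices Xbp1 RNA, was lowest of the list, at 6.83, 6.22 and 6.18, a first difference of -0.61. A second measured probe set of Ern1 gave -0.16. The other was Wfs1, an ER membrane protein, at -0.33, and the higher gene was Pdia5, a disulfide isomerase, at 0.33. With DMSO only Crebrf passed the limit, at -0.45, and its other 2 measured probe sets were equal on all arrays. Ostc, a subunit of the glycosylation complex, was at 0.28 in osteogenic medium, and at 0.25 in its second probe set. For Sec63, of the translocation channel, the brightest probe set gave 0.30 and the other 4 gave -0.37, 0.20, -0.26 and 0.03, and for Stt3b, a catalytic subunit of glycosylation, the 2 probe sets gave -0.30 and 0.12, so neither gene has a settled direction. The highest DMSO difference was that of Derl2, a degradation channel protein, at 0.20, with -0.10 in its second probe set.

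Of 10 other measured dioxygenases that use 2-oxoglutarate, 1 was lower by the limit and 1 higher in osteogenic medium. The shares of all measured genes were 5.89% and 6.01%, so with so few genes these counts do not stand out. With DMSO none was either, against 5.39% lower and 2.23% higher. Jmjd6, a nuclear hydroxylase of lysine, was higher by 0.66, with 0.39 in its second probe set, and Phyh, the peroxisomal phytanoyl-CoA hydroxylase, was at -0.33. The vitamin C transporter Slc23a2 stood at 6.73, 6.49 and 6.24, with differences of -0.24 and -0.25, while Slc23a1 lay below the floor. By their brightest probe sets, none of the 5 collagen genes taken as substrates differed by 0.32 at either step. Col1a1 stood at 12.28, 12.32 and 12.50 and Col1a2 at 13.30, 13.34 and 13.34. Dimmer probe sets passed the limit at both steps for Col3a1 (0.33 and -0.43) and Col1a2 (0.49 and -0.45), whose brightest ones gave 0.14 and -0.09 and 0.03 and 0.00. Col5a1 gave the largest first difference of the 5 collagen genes, at -0.29, with 0.11 in its second probe set.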

How the data were processed

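The authors' deposited values, 1 column per array for 45101 probe sets, were taken as log2 from their range of 0.65 to 13.4. No label or header states the log base, the summarisation or the normalization. Total RNA was labelled as biotin cRNA with a 3' in vitro transcription kit, per the labels' protocols. The array medians were similar, and whether a change of total RNA per cell would be seen is unknown. Probe sets were named from the platform annotation of 2016. Of 45037 that are not array controls, 34945 had 1 gene symbol and were used, 932 had several and 9160 were unnamed here. Values below the floor, the 50th percentile (3.54), were raised to it. Named genes were all members, the markers, and the largest differences of each further list. P4ha1 was added after its values were seen. The members and lists were chosen with earlier results of these data known. Alternatives changed the probe set rule, array scaling, floor, equal values and fold size. Python 3.11.15, numpy 2.4.6, pandas 2.3.3, matplotlib 3.10.9, R 4.3.3 and limma 3.58.1 (cyclic loess) were used, and the calls were tested on simulated data. Protein sequences were not analysed here.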

Additional observations from a re-analysis of the deposited data

How the results depend on the processing

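P3h2 stayed more than 2-fold lower with DMSO (-1.12 to -1.09) under every alternative that gave it a value, but most of these could not change it. It has 1 probe set and lay above every floor. The mean of probe sets and floors at the 40th and 60th percentile or none therefore returned the same -1.11. Of the 3 array scalings, median centring gave -1.11, quantile normalization -1.09 and cyclic loess -1.12. Because P3h2 has no second probe set, the count of 2-fold lower genes with DMSO was 0 under the second-highest probe set, among 19 genes. With a limit of 0.3219 on the log2 scale in place of 2-fold, 4 genes were lower and 1 higher in osteogenic medium, and 2 lower and 1 higher with DMSO. The median of the hydroxylases in osteogenic medium ranged from -0.27 without equal values to -0.09 with second probe sets. The latter rests on 2 genes of opposite sign, Plod2 at -0.31 and P3h1 at 0.12. The median of the general chaperones ranged from -0.18 with second probe sets, over 7 genes, to -0.04. With DMSO the lowest medians of these roles were -0.12 and -0.06, both with second probe sets, over 2 and 7 genes. Of 528 values of single genes under an alternative, 514 moved by less than the SD between probe sets and 14 by more, all 14 under another probe set rule. Many of the 514 could not move, since the floors lay below these genes and the mean rule leaves a gene with 1 probe set unchanged. With the second-highest probe set 11 values moved by more than the SD and 27 by less. With the mean of probe sets these counts were 3 and 67. Bmp1 was below that limit with the mean of its probe sets (0.14) and with its second (0.00), Sel1l with the mean (-0.23) and with median centring (-0.3216), Plod2 with its second (-0.31) and Creb3l1 with cyclic loess (0.3152). The scalings moved the median of all measured genes by at most 0.02. No paired analysis was possible because each medium had 1 array. Leaving out a replicate could not be run for the same reason. Without replicates, the spread between cultures limits every value.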
